A study of Mus musculus with 2 samples.

Results

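Cluster 3 is 1 of the 18 cell clusters that the authors compared between genotypes, and their study names it, together with clusters 0, 11, 12 and 13, as macrophages/monocytes. All 359 genes of its deposited comparison table were taken, of 6477 genes listed in any of the 18 tables. The cells came from cardiac ventricles after myocardial infarction (MI), by perfusion digestion and sorting of viable interstitial cells, and were profiled with the 10x Chromium V3.1 chemistry. There were 2 libraries, 1 per genotype. The control library was from PostnMCM mice, which carry a tamoxifen-inducible Cre at Postn, a gene switched on in myofibroblasts, and the other library was from Yapfl/fl;Wwtr1fl/+;PostnMCM mice, in which that Cre can remove both copies of Yap1 and 1 copy of Wwtr1. Both groups also carried the Rosa26 eGFP reporter, received tamoxifen citrate chow at 0.4 g/kg from the infarction on, and were sampled at day 6 according to the sample labels, while the methods of the study give day 7. Cre in this design acts in Postn-expressing cells, so macrophages were compared as neighbours of the targeted cells, not as the targets themselves. How many hearts went into each library is not given in the sources used here.

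Macrophages are phagocytes that clear dead cells and debris from the infarct and signal to fibroblasts during scar formation. Some derive from monocytes that enter from the blood, which carry Chil3, Ly6c2 and Plac8 transcripts, while resident cardiac macrophages carry genes such as Folr2, Cbr2 and Lyve1. Type I interferon acts on these cells through a transcription factor complex that contains STAT2 and IRF9, binds interferon-stimulated response elements and switches on a broad antiviral programme.

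Each value below is the share of cells of cluster 3 with a value above 0 for the transcript after the authors' SCTransform normalization of the counts, as a percent, with the control library first and the library labelled depleted second, and the difference is in percentage points. With 1 library per genotype there is no replicate error, no test was possible, and each difference compares these libraries and not the genotypes. Cell numbers and counts per cell for each cluster and library are not part of the tables, and the depth behind a share is thus unknown. A gene is listed only when it passed the authors' limits on its share and on the difference in its mean level between the libraries. The listed genes were thus already chosen for a difference in level. An unlisted gene has no value here, and it can be abundant with a similar level in both libraries. A gene counted in nearly every cell shows no difference in share whatever its level did. A difference of 10 points or more was called higher or lower. Genes outside the naming rule given with the methods were chosen after their values were seen.

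Yap1, Wwtr1 and Postn are listed in 0 of the 18 cluster tables, that of cluster 3 included, so the targeted genes have no value in these macrophages. In the tables of 4 fibroblast subclusters the share of cells with Yap1 was 23.3% to 57.5% in the control library and 40.0% to 56.2% in the other, and was lower in 1 of the 4. Wwtr1 was lower by any amount in 3 of the 4 subclusters and by 10 points or more in 2. The fibroblast subcluster that the study describes as mainly from the depleted genotype is not among these 4. By staining, the study reports less nuclear Yap and Wwtr1 protein in GFP-positive myofibroblasts of the depleted genotype. A share of cells with RNA is another measure. Since the share for Yap1 does not follow the label of the second library in 3 subclusters, that library is named by its label, as the library labelled depleted, throughout.

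The markers set for macrophages and monocytes were present in both libraries where the table lists them. Of 20 core macrophage genes 8 are listed. Lyz2, the lysozyme of myeloid cells, went from 99.6% to 100%, but it was also in 93.4% and 80.0% of T cell cluster 4 and 83.5% and 96.2% of NK cell cluster 14, so its share alone does not mark these cells. Adgre1, which encodes F4/80, was in 74.8% and 75.8% of cells, and Fcgr1, the high-affinity IgG receptor, in 80.5% and 84.4%. Monocyte genes were in part of the cells, with Ly6c2, which T cell cluster 7 also holds in 32.3% and 65.4% of cells, at 33.3% and 38.3%. None of 22 T and NK cell genes, 16 B cell genes, 8 erythroid genes, 18 cardiomyocyte genes or 20 endothelial and mural genes is listed, which says that they did not pass the listing limits and not that they were at 0. Of 20 dendritic cell genes 3 are listed, and the defining Flt3, Zbtb46, Xcr1 and Cd209a are not among them.

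In cluster 3 the library labelled depleted had 129 genes higher and 58 genes lower by 10 points or more, with 172 between these limits. These counts are 35.9% and 16.2% of the 359 genes, and the shares of list members given below are to be read against them. The median difference over all 359 genes was 3.7 points, and after subtracting it 93 genes were higher and 76 lower. By any amount, 210 genes were higher, 107 lower and 42 equal, of which 41 were at 100% in both libraries. Of the 69 genes at 95% or more in both libraries, 36 encode ribosomal proteins, of 38 such genes listed. The ribosomal protein gene past the limit was Rps6, a component of the small subunit, which went from 91.5% to 77.0%.

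**Figure D1:**
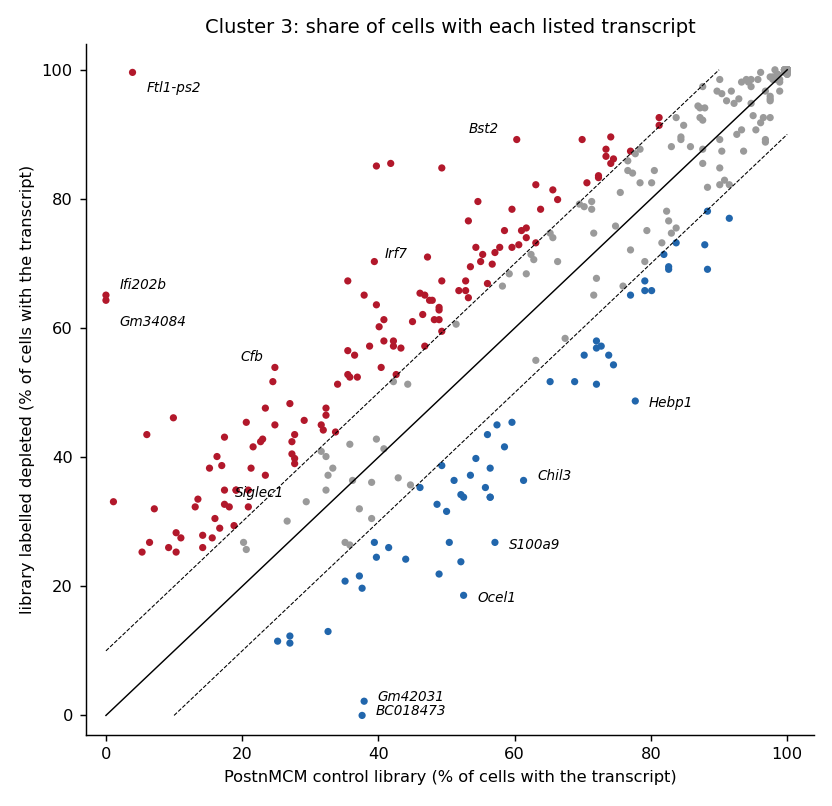
Each point is 1 of the 359 genes listed for cluster 3, placed by the percent of control cells (horizontal) and of cells of the library labelled depleted (vertical) with its transcript; the solid line marks equal shares, the dashed lines 10 points, red genes are higher (129), blue genes lower (58) and grey genes between. Ftl1-ps2, Ifi202b and Gm34084 stand at the left edge, near 0% in the control library, and BC018473 and Gm42031 at the bottom, near 0% in the other.

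Of all the gene lists, the interferon-response list, which is also the longest, had the most members past the limit, all of them higher in the library labelled depleted. Some lists with few listed genes had a larger share of them past it. Of 66 genes in the interferon list 16 are listed for cluster 3, of which 10 were higher by 10 points or more and 0 lower, and the median difference of the 16 was 13.4 points beside 3.7 for all genes of the table; after subtracting that median 7 were higher by 10 points or more. Irf7, the transcription factor that amplifies interferon production, was in 39.4% of control cells and 70.3% of cells of the library labelled depleted, 30.9 points more (chromosome 7, 140842619 to 140846398 on GRCm39, minus strand). Bst2, the tetherin that holds budding viruses at the membrane, went from 60.3% to 89.2% (chromosome 8, 71986895 to 71990114, minus strand). Bst2 was also in 43.4% and 49.7% of T cell cluster 7 and in 27.5% and 52.1% of T cell cluster 8, and the part of free RNA was not tested. Rtp4, an interferon-induced receptor chaperone that is outside the list, went from 37.9% to 65.1%.

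The next interferon genes differed by about 13 to 21 points. Oasl2, of the 2′-5′ oligoadenylate synthetase-like family, was in 35.5% and 56.5% of cells. Zbp1, the sensor of Z-form nucleic acid, was in 36.5% and 55.8%. Lgals3bp, a secreted glycoprotein, was in 59.6% and 78.4%. The signalling and nuclear members were also higher: Stat2, a transcription factor downstream of the interferon receptor, went from 27.3% to 40.5%. Sp100, a nuclear body protein, was in 54.3% and 72.5% of cells. Rnf213, a large ubiquitin ligase, was in 47.5% and 64.3%. Members near saturation had little room to differ in share, as for Ifitm3, which restricts virus entry, at 96.1% and 99.6%.

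Further genes known to be induced by interferon, which are outside the list and were chosen after their values were seen, are given as values. Epsti1 went from 54.6% to 79.6% and Trim30d, a tripartite motif protein, from 17.4% to 43.1%. Apobec3, a cytidine deaminase that acts on retroviruses, was in 21.6% and 41.6% of cells. It is higher in all 13 other tables that list it, as at 10.4% and 62.6% in B cell cluster 2. Trim12a was in 13.1% and 32.3%, and is higher in all 11 other tables that list it. These differences were thus not particular to cluster 3. Dtx3l, a ubiquitin ligase, was in 40.8% and 58.0%, and Samd9l in 42.2% and 58.0%. Slfn4 and Slfn5, of the Schlafen family, were in 9.2% and 26% and in 61.7% and 75.5% of cells.

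Ifi202b, of the interferon-inducible p200 family of nucleic acid binding proteins, differed most among protein-coding genes. It was in 0.0% of control cells and 65.1% of cells of the library labelled depleted (chromosome 1, 173790134 to 173810414, minus strand). The same table lists its family member Mndal at 66.3% and 79.9%. Ifi202b was also listed at 0.0% of control cells in clusters 0, 5, 11, 12 and 13, against 57.8%, 71.7%, 27.1%, 27.8% and 80.3% in the other library, so the near absence in the control library was not particular to cluster 3.

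Stretches of promoter are shown for 4 of these genes because each holds the letters of the interferon-stimulated response element. RefSeq promoters (250 bases before to 50 after the start, GRCm38.p6) were searched on both strands for the letters TTTC and TTTC with any 2 bases between them, and 277 of the 359 genes had a promoter in the table; a gene with several starts counts if any of them matches. The lines below are 60 bases each, 5′ to 3′ on the strand of the gene, with the motif in capitals; it is read on the opposite strand in Bst2. They lie at chr8:71537568-71537627 (Bst2, minus strand), chr10:128270251-128270310 (Stat2, plus strand), chr7:104507856-104507915 (Trim30d, minus strand) and chr15:79892243-79892302 (Apobec3, plus strand), and the motif begins 130, 222, 41 and 140 bases before the start.
Bst2: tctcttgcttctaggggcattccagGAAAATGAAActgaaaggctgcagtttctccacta
Stat2: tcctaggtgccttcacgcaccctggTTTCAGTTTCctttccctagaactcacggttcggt
Trim30d: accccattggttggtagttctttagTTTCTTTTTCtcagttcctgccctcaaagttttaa
Apobec3: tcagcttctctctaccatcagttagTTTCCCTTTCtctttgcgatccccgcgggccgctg
Among the 12 listed interferon genes with a promoter, 5 held the motif (41.7%). It was in 14 of 99 promoters of higher genes (14.1%), 3 of 45 of lower genes (6.67%), 33 of 277 of all listed genes (11.9%) and 3.99% of all 27025 genes with a promoter. Genes with the motif were found on both sides, as Spp1, Pilra and F630028O10Rik of the lower genes held it. The letters of the TEAD motif GGAATG, to which YAP and TAZ are recruited, were in 14.1% of promoters of higher genes, 8.89% of lower genes and 16.6% of all genes. The cyclic AMP response element TGACGTCA was in 3.03% of higher, 2.22% of lower and 2.03% of all genes, and the E-box CACGTG in 7.07%, 6.67% and 8.09%. A match is a description of letters in the window and not a site.

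Antigen presentation genes mostly lay within the limit. Of 22 genes of MHC class I presentation 7 are listed, with 1 higher by 10 points or more, 3 above and 1 below their control share by any amount and a median of 0.0 points. B2m, H2-K1 and H2-D1 were in 100% of cells of both libraries. The peptide transporter Tap1 was in 46.5% and 62.1% of cells and Tapbp, the tapasin that loads peptide, in 71.3% and 79.6%. Calr, calreticulin, was in 97.5% and 95.5% and Pdia3, which folds class I chains, in 94.7% and 94.8%. H2-T24, a nonclassical class I gene outside the list, went from 17% to 38.7%. Class II members, which present peptides to helper T cells, all stood below their control share without passing the limit: 6 of 10 are listed, with 0 past 10 points and a median of -2.75 points. Their master regulator Ciita was in 67.4% of control cells and 58.4% of the others. H2-DMb1 and H2-DMa, which exchange peptides, were at 93.6% and 87.4% and at 95.4% and 90.7%. H2-Ab1 (98.9% and 98.1%) and Cd74 (100% and 99.3%) were near saturation.

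Of 22 complement genes 5 are listed, with 3 higher by 10 points or more, 0 lower and 2 within the limit, and 1 higher after subtracting the median of all genes. Cfb, factor B of the alternative pathway, was in 24.8% and 53.9% of cells, a difference of 29.1 points (chromosome 17, 35074852 to 35081559, minus strand). C4b, of the classical and lectin pathways, was in 15.6% and 27.5%. The receptor for the C3a fragment, C3ar1, went from 77.0% to 87.4%. C3 itself was in 32.6% and 37.2% of cells, and the C5a receptor C5ar1 in 71.3% and 78.4%.

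Of 31 phagocytic and Fc receptor genes 14 are listed, with 5 higher and 2 lower, which are shares near those of the whole table. Mertk and Axl, the receptor kinases that recognise bridging proteins on dying cells, were in 32.3% and 47.6% and in 48.2% and 61.3% of cells. Axl was also the gene listed of 28 in the YAP/TAZ list. Cd36, the scavenger receptor and fatty acid transporter, was in 11% and 27.5%. Against these, the class A scavenger receptor Msr1 was lower, at 82.6% and 69.5%, and the C-type lectin Clec4n, which encodes dectin-2, at 72.0% and 58.0%. The inhibitory lectin Clec12a was in 74.1% and 85.5% of cells.

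Lipid-handling genes likewise did not move as a block. Of 20 genes of the lipid-associated list 9 are listed, with a median of 0.2 points. Lpl, lipoprotein lipase, was in 32.3% and 40.1% of cells. Apoc2, its activator, which is outside the list, was in 20.6% and 45.4%. Plin2, which coats lipid droplets, was in 81.2% and 91.4%. Trem2, the lipid receptor of this state, was in 82.6% and 76.6%, and the matrix glycoprotein Spp1, osteopontin, was lower at 56.4% and 33.8%.

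Of 18 resident-type genes 6 are listed, with 2 higher and 0 lower, and the share of higher genes is near that of the whole table. The folate receptor Folr2 was in 16% and 30.5% of cells and the carbonyl reductase Cbr2 in 16.7% and 29.0%. Pf4 (42.9% and 36.8%), a platelet-type chemokine also made by resident macrophages, and the scavenger receptor Stab1 (44.7% and 35.7%) stood the other way, both within the limit. The selenium carrier Selenop (84.4% and 89.6%) and the transcription factor Maf (62.4% and 71.4%) were within it too. Siglec1, the sialic acid receptor CD169, is outside this list and went from 17.4% to 34.9%.

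**Figure D2:**
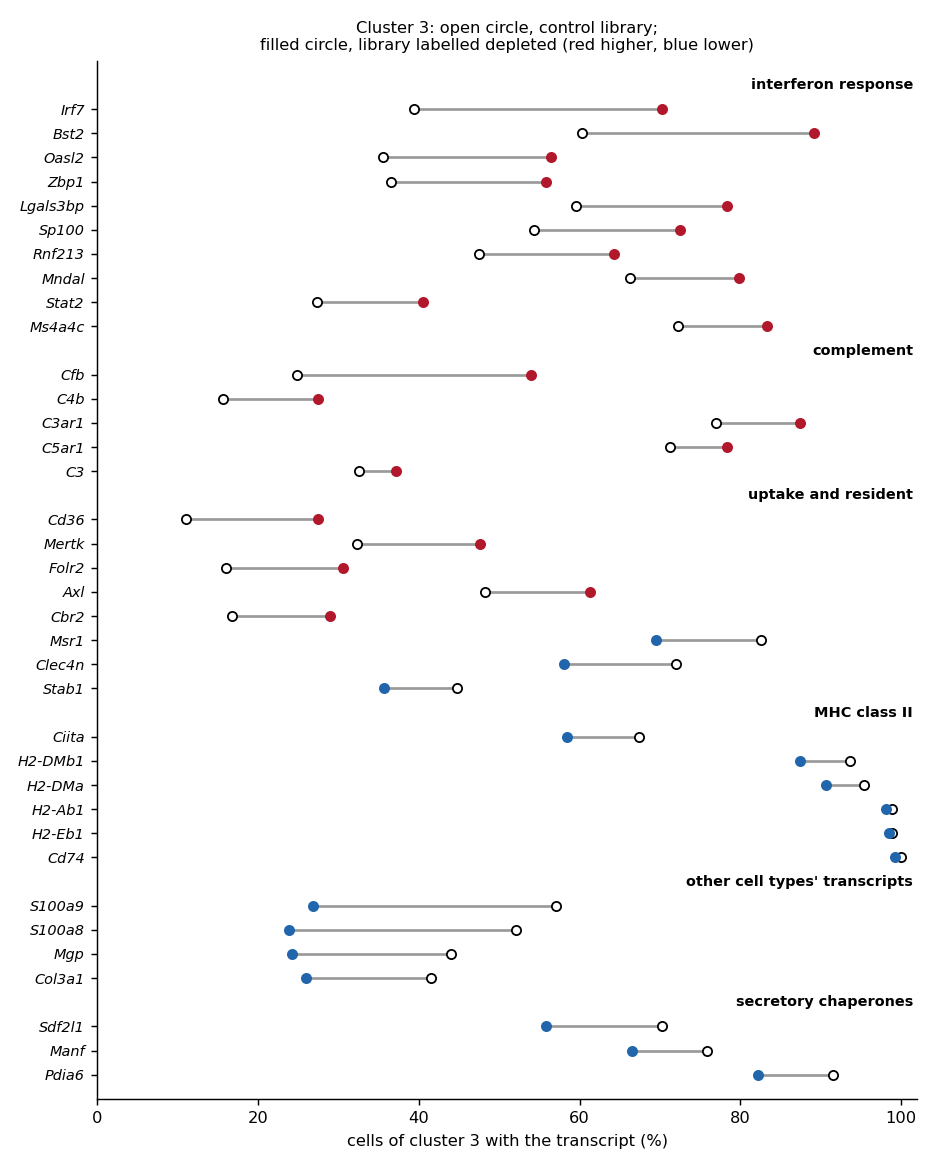
Shares of cells of cluster 3 (horizontal axis, percent) for named genes by group, with open circles for the control library and filled circles for the library labelled depleted, red where higher and blue where lower; 1 library per point and no error bars. Interferon and complement genes lie to the right of their control value, as from 39.4% to 70.3% for Irf7, while the 6 MHC class II genes lie to the left by under 10 points.

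Inflammatory regulators were few and mixed. Nfkbiz, a nuclear partner of NF-kappaB, was in 23.4% and 47.6% of cells, and Casp4, the caspase that senses intracellular lipopolysaccharide, in 6.4% and 26.8%. Il1b, the cytokine interleukin-1 beta, was lower, at 54.3% and 39.8%. Of 28 chemokine and receptor genes 6 are listed, with 0 past the limit in either direction and a median of 5.1 points. Ccl9 was in 90.4% and 96.3% of cells. Monocyte-attracting Ccl2 and Ccl12 were in 26.6% and 30.1% and in 20.6% and 25.7%.

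Leukotriene genes gave the following values. Cyp4f18, the cytochrome P450 that inactivates leukotriene B4, was in 35.5% and 67.3% of cells, 31.8 points more (chromosome 8, 72742313 to 72763478, minus strand). Ltb4r1, the high-affinity receptor for leukotriene B4, was lower at 49.3% and 38.7%. Ltc4s, which makes leukotriene C4, was in 32.3% and 46.5%.

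Some transcripts that neutrophils, monocytes or fibroblasts hold in bulk were in fewer macrophages of the library labelled depleted, though their lists also had members on the other side. S100a9 and S100a8, the calprotectin subunits that neutrophils hold in bulk, were in 57.1% and 26.8% and in 52.1% and 23.8% of cells of cluster 3. S100a9 was also in 67.7% and 46.5% of cells of T cell cluster 7, in 50.9% and 39.6% of T cell cluster 8 and in 79.7% and 58.3% of B cell cluster 2, which should lack it. S100a8 was in 63.6% and 40.3% of cells of cluster 7 and in 38.6% and 39.6% of cluster 8. The shares in cluster 3 were below those of cluster 7 in each library, and in the control library above those of cluster 8. With depths unknown, no difference in expression by these macrophages is read from either gene, and the part of free RNA was not tested. Of 22 neutrophil genes 3 are listed, the other being Ifitm6, in 33.7% and 43.9% of cells; the defining Retnlg, Csf3r and Cxcr2 are not listed. Of 16 S100 and annexin genes 4 are listed, all of them below their control share, the others being S100a4 (93.3% and 90.7%) and Anxa2 (90.4% and 87.4%).

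Of 20 monocyte genes 8 are listed, with 2 higher (Thbs1 and Ms4a4c), 1 lower (Chil3) and a median of 2.85 points. Chil3, the chitinase-like protein of monocytes, was in 61.3% and 36.4% of cells. In T cell clusters 7 and 8 it was in 38.4% and 0.6% and in 25.7% and 0.0% of cells, and in macrophage cluster 13 in 97.9% and 91.5%. In each library the share in cluster 3 was above that in the T cells, and the T cell share was lower in the same library. Spp1 was in 34.2% and 15.4% of NK cell cluster 14, below its 56.4% and 33.8% in cluster 3. The part that free RNA has in these differences was not tested.

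Of 20 fibroblast genes 3 are listed for cluster 3, with 2 lower and 1 higher. Mgp, matrix Gla protein, was in 44.0% and 24.2% of cells, in 33.3% and 12.5% of T cell cluster 8, and in 93.6% and 96.3% of fibroblast cluster 5. Col3a1, the collagen III chain, was in 41.5% and 26%, against 32.3% and 12.6% in T cell cluster 7 and 100% in both libraries in cluster 5. The third, Timp2, an inhibitor of matrix metalloproteinases that macrophages also make, was in 56.0% and 66.9%. Col1a1, Col1a2, Dcn, Lum and Pdgfra are not listed. The T cell shares of Mgp and Col3a1 were thus also lower in the library labelled depleted, and their part in the result was not tested.

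Of 30 matrix, protease and repair genes 10 are listed, 4 higher and 2 lower, which are shares near those of the whole table, the lower ones being Spp1 and Col3a1. Sdc3, the heparan sulfate proteoglycan syndecan-3, was in 69.9% and 89.2% of cells. Thbs1, thrombospondin 1, which can release latent TGF-beta, was in 34.0% and 51.3%, and the membrane collagenase Mmp14 in 42.6% and 52.8%. Tgfbi, a TGF-beta-induced adhesion protein, was in 96.8% and 88.8%. Outside the list, Tgfb1 was in 82.3% and 78.1% of cells, and the receptor chain Tgfbr1 was lower at 59.6% and 45.4%.

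Metabolic and stress genes are listed in small numbers. Hk2, hexokinase 2 at the entry to glycolysis, was in 38.7% and 57.2% of cells, and Hif1a, the oxygen-regulated transcription factor, in 60.6% and 72.9%. Hmox1, which breaks down haem, was in 51.4% and 60.6%, while Hebp1, a haem-binding protein, was lower at 77.7% and 48.7%. Of 30 heat shock and chaperone genes 6 are listed with a median of -5.65 points. Of the chaperones of the secretory pathway, Sdf2l1 was lower at 70.2% and 55.8%. Manf at 75.9% and 66.5% and Pdia6 at 91.5% and 82.2% lay within the limit, as did Calr and Pdia3. The stress-induced cytosolic chaperone Hspa1a went the other way, from 19.1% to 34.9%. Of the antioxidant enzymes, Prdx2 was in 88.3% and 69.1% and glutathione reductase, Gsr, in 52.1% and 34.2%.

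Other lists had few members past the limit. Lysosomal genes were listed 4 times of 32, all 4 higher by some amount, among them Scarb2, the receptor that carries glucocerebrosidase, at 45% and 61.0%. Of 35 actin cytoskeleton genes 5 are listed and 0 passed 10 points. Immediate early genes are listed 3 times of 31, with 2 higher, Klf2 at 53.2% and 64.7% and Dusp1 at 46.8% and 57.2%. Jun, at 79.4% and 75.1%, lay within the limit. None of 37 cell cycle genes is listed. Outside that list, Pttg1, the securin that keeps separase inactive until anaphase, was in 7.1% and 32.0% of cells. Pttg1 is listed in 5 other tables, higher in 3 and lower in 2. It was in 6.1% and 32.0% of cluster 0 and in 63.6% and 23.7% of T cell cluster 10. Cdkn1a, the cyclin-dependent kinase inhibitor p21, was in 42.2% and 57.2% of cluster 3.

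The largest difference of all belonged to a gene listed in every cluster. Ftl1-ps2, a processed pseudogene of the ferritin light chain, was in 3.9% and 99.6% of cells and is listed in all 17 other tables. Ftl1, its parent, was in 100% of cells of both libraries. The copies differ at 12 of 549 aligned bases, and a read that covers none of these matches both. To show how they can be told apart, 60 bases of the Ftl1 coding sequence (positions 167 to 226 of 552, GENCODE vM39 on GRCm39) are given beside the same stretch of Ftl1-ps2, with the 3 differing bases in capitals.
Ftl1: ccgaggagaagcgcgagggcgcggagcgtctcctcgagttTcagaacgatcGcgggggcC
Ftl1-ps2: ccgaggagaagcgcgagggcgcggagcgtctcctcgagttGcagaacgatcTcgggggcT
Of the 7 pseudogenes listed for cluster 3, 6 were higher and 1 lower. Rpl27a-ps4 was in 39.7% and 85.1%, Gm15682 in 41.8% and 85.5%, Gm7429 in 6.0% and 43.5% and Rpl34-ps1 in 9.9% and 46.1%. Gm12191 was the lower one, at 56.4% and 33.8%. Values of pseudogenes are uncertain where a copy is nearly identical to its parent gene, and how reads of such copies were counted was not tested.

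Other genes among the largest differences included some at or near 0% in 1 library. The predicted gene Gm34084 was in 0.0% of control cells and 64.3% of the others, and Gm51963 in 1.1% and 33.1%. Gm36161, a noncoding RNA gene on chromosome 13, was in 49.3% and 84.8%. BC018473, a noncoding RNA gene (chromosome 11, 116642993 to 116650199, plus strand), was in 37.6% of control cells and 0.0% of the others, and Gm42031 in 37.9% and 2.2%. BC018473 is listed in 15 other tables and lower in all 15. Ocel1, whose product has an occludin-type domain, was in 52.5% and 18.6% of cells and is lower in all 10 other tables that list it.

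Most genes of cluster 3 were shared with other tables, and 6 were listed here alone. All cluster tables compare the same 2 libraries, so a value in another cluster is not an independent measurement. The median gene of cluster 3 is listed in 5 of the 17 other tables, 166 genes in 1 to 4 of them, 131 in 5 to 8 and 56 in 9 or more. The 6 listed here alone were Siglec1 (17.4% and 34.9%; chromosome 2, 130911140 to 130928685, minus strand), Gdf3 (10.3% and 25.3%), a TGF-beta family ligand, Eepd1 (14.2% and 27.9%), Ccl12, Stab1 and Pomp (92.6% and 90.0%), a proteasome assembly factor. Siglec1, Gdf3 and Eepd1 were higher by 10 points or more, the other 3 lay within the limit, and 0 of the 58 lower genes were listed in cluster 3 alone. Being listed alone says that no other table passed the limits, and the difference between clusters was not tested.

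**Figure D3:**
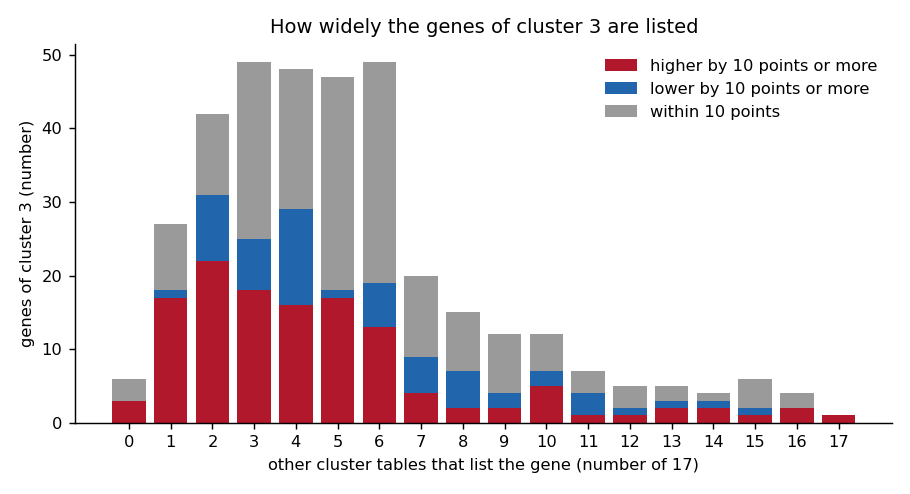
Number of genes of cluster 3 (vertical axis) by how many of the 17 other cluster tables list them (horizontal axis), stacked by direction in cluster 3. The bar at 0 holds 6 genes, and the 129 higher genes have a median of 4 other tables, as do the 58 lower genes.

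Beyond these 6, a further 49 genes were listed in macrophage/monocyte tables and in no table of another cell type, 24 of them higher and 6 lower. The higher ones include Eps8, a regulator of actin filaments, at 24.5% and 51.7%, Apoc2, Casp4, Hk2, Sdc3, C3ar1, Mertk, Axl, Folr2 and Cbr2. Gab1, an adaptor of receptor kinases, was in 15.2% and 38.3% and Colgalt1, which glycosylates collagen, in 46.1% and 65.4%. Gda, guanine deaminase, was in 73.4% and 87.7%. On the other hand, 26 genes were listed in no other macrophage/monocyte table, the 6 included.

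Overlap was greatest with cluster 0, the macrophage cluster with the longest of these tables (923 genes). It lists 240 genes of cluster 3, which are 66.9% of cluster 3 and 26% of cluster 0. Cluster 13 lists 191 (53.2% of cluster 3 and 21.4% of cluster 13), cluster 11 lists 154 (42.9% and 21.1%) and cluster 12 lists 127 (35.4% and 19.5%). Tables of more genes can share more. All 4 list 38 of the 359 genes. In their own tables clusters 0, 11, 12 and 13 had 47.9%, 26.2%, 27.8% and 41.7% of genes higher by 10 points and 19.9%, 44.2%, 33.2% and 25.9% lower.

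The other macrophage clusters had their own levels of the genes that differed in cluster 3. Bst2 was in 53.2% and 84.5% of cells in cluster 0, in 50% and 81.2% in cluster 11, in 25% and 44.3% in cluster 12 and in 55.8% and 83.1% in cluster 13, beside 60.3% and 89.2% in cluster 3. Irf7 was in 25.8% and 57.3% in cluster 0 and 19.8% and 36.7% in cluster 12. Outside macrophages Irf7 was in 29.2% and 70.1% of fibroblast cluster 5 and 11.7% and 29.2% of T cell cluster 8. In neutrophil cluster 1 it was in 13.2% and 25.1%. Irf7 is not listed for the B cell, NK cell or other T cell clusters, and the part of free RNA in its shares was not tested. Cfb, in 24.8% and 53.9% of cluster 3, was in 10.8% and 53.6% of cluster 0 and 55.7% and 77.5% of fibroblast cluster 5. Rtp4 was in 19.4% and 51.8% of cluster 0 and 42.1% and 76.1% of cluster 13.

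Mertk, Axl and Folr2 are listed for cluster 0 and for no other cluster besides cluster 3, so their background in cells that should lack them has no value here. Mertk was in 60.9% and 76.2% of cluster 0, above 32.3% and 47.6% in cluster 3. Folr2 was in 75.0% and 86.3% of cluster 0, so this resident marker was in a minority of cells in cluster 3 in either library. Cd36 was in 38.6% and 71.9% of cluster 0. Axl showed the opposite order of levels, at 11.3% and 35.1% in cluster 0 against 48.2% and 61.3% in cluster 3.

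Hebp1 was lower in cluster 0 (83.0% and 60.1%), cluster 11 (41.7% and 10.4%) and cluster 13 (85.3% and 54.9%), as in cluster 3. Ocel1 was at 60.4% and 16.5% in cluster 0. Cyp4f18 was higher in cluster 12 (52.1% and 70.9%) and cluster 13 (34.7% and 70.4%) but stood at 80.2% and 58.7% in neutrophil cluster 1 and 27.3% and 5.9% in neutrophil cluster 18. The direction of this leukotriene enzyme in cluster 3 was thus that of clusters 12 and 13 and the opposite of that in neutrophils, and the difference between cell types was not tested.

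**Figure D4:**
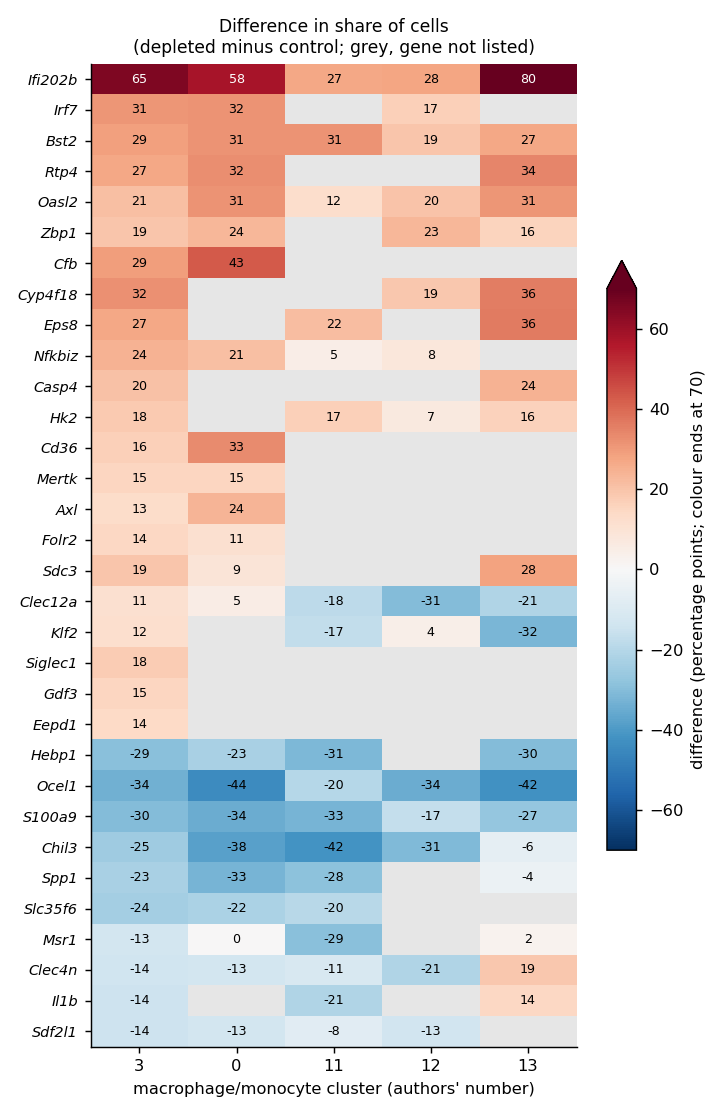
Difference in share of cells (depleted minus control, percentage points, colour and printed value) for named genes in cluster 3 and in the other macrophage/monocyte clusters 0, 11, 12 and 13; grey cells are genes that a table does not list. Ifi202b, Bst2 and Oasl2 are higher and Ocel1 and S100a9 lower by 10 points or more in all 5 clusters, Siglec1, Gdf3 and Eepd1 have a value in cluster 3 alone, and Clec12a, Klf2, Clec4n and Il1b differ in direction between clusters.

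Chromosomes 8 and 1 held the most lower genes. Of the 344 genes with a position in GENCODE vM39 (GRCm39), 27 are on chromosome 8, with 11 lower (40.7%) and 7 higher, and 17 are on chromosome 1, with 7 lower (41.2%) and 6 higher, beside 16.2% lower in the whole table. Chromosome 17 had 26 listed genes, 10 higher and 0 lower. Among the lower genes of chromosome 8 were Gadd45gip1, a mitochondrial ribosome factor, in 48.9% and 21.9% of cells, and Wdr83os, of membrane protein insertion, in 74.5% and 54.3%. Ocel1, Prdx2 and Gm42031, described above, also lie on chromosome 8. Gadd45gip1 and Wdr83os are each below their control share, by any amount, in all 11 other tables that list them.

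**Figure D5:**
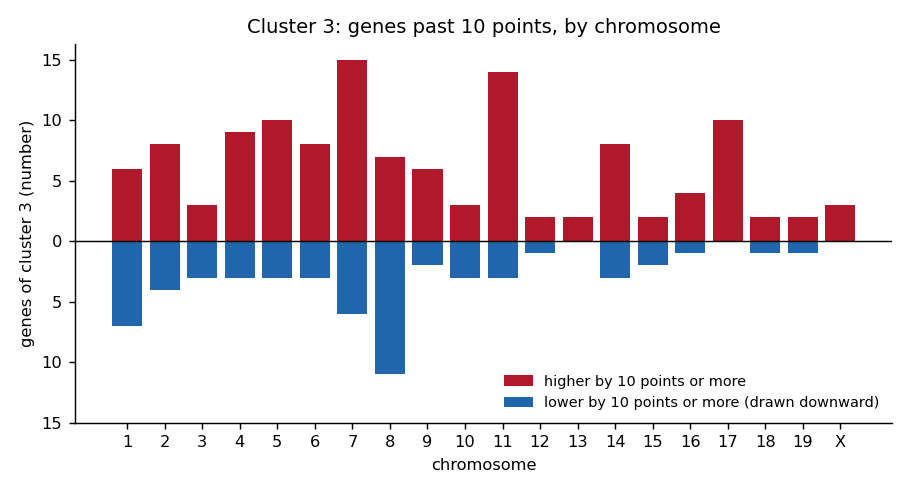
Number of genes of cluster 3 that were higher (red, upward) or lower (blue, downward) by 10 points or more on each chromosome. Chromosome 8 has 11 lower genes and chromosome 1 has 7, while chromosome 17 has 10 higher and 0 lower.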

How the data were processed

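The authors mapped 10x reads with Cell Ranger 6.1.1 to GRCm39 and clustered cells with Seurat, per the labels and the study's methods. They removed low-quality clusters, and no doublet caller is named. The deposited tables compare both libraries within each cluster and hold, for each listed gene, the fraction of cells in each library with a value above 0 in the SCTransform-normalized data, which need not equal the fraction with a raw count. Their fold changes and p-values, from a rank test over cells, were not used. Code deposited by the authors sets listing limits on share and on the difference in mean level between the libraries. In cluster 3 the larger share was at least 25.2%.

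Fractions were written as percents and subtracted, depleted minus control. A gene was called at 10 points. Counts, medians, sharing and positions were computed with Python 3.11.15 and pandas 2.3.3, and Ftl1 was aligned with Biopython 1.88. The code of the calling step was checked on simulated mid-range shares with planted differences well past the limit. That check gives no error rate for calls in these libraries. Promoters are RefSeq's (GRCm38.p6) and positions GENCODE's (GRCm39). No test was made, since there was 1 library per genotype. Named genes are the 15 largest differences in each direction, those listed in cluster 3 alone, and list members past 5 points. Of the 30 lists, those with fewer than 5 listed genes got no median in the alternatives. The members and lists were chosen with earlier results of these data known. Alternatives changed the limit, the scale, the centring and the genes or tables counted. Cell numbers and depth of each cluster in each library are not among the values used here, so no interval is given. The study plots the percent of cells from each genotype per cluster, and that plot was not read. Some listed genes are not reported here.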

Additional observations from a re-analysis of the deposited data

Results flagged for a closer look

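Some of the named genes stood in opposite directions in cluster 3 and in another macrophage/monocyte cluster, each by 10 points or more. These gaps between clusters, given as the difference in cluster 3 minus that in the other cluster, were not tested, and both values come from the same 2 libraries.

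Clec12a, the inhibitory lectin, was higher in cluster 3 and lower in cluster 11 (49.3% and 31.2%, gap 29.5 points), cluster 12 (69.8% and 39.2%, gap 42.0) and cluster 13 (71.6% and 50.7%, gap 32.3). Ifitm6, an interferon-induced membrane protein of neutrophils and monocytes, was higher in cluster 3 and lower in cluster 11 (59.0% and 43.8%, gap 25.4), cluster 12 (79.2% and 64.6%, gap 24.8) and cluster 13 (94.7% and 78.9%, gap 26). Klf2, a transcription factor that restrains inflammation, was lower in cluster 11 (52.8% and 35.4%, gap 28.9) and cluster 13 (75.8% and 43.7%, gap 43.6).

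In cluster 11, Cd14, the lipopolysaccharide co-receptor, was lower (36.8% and 22.9%, gap 25.6), as were Rnf213 (43.1% and 31.2%, gap 28.7) and Timp2 (25.7% and 2.1%, gap 34.5). In cluster 13, Hspa1a was lower (28.4% and 16.9%, gap 27.3), while Il1b (50.5% and 64.8%, gap -28.8) and Clec4n (30.5% and 49.3%, gap -32.8) were higher there and lower in cluster 3.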

How the results depend on the processing

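The number of higher genes, 129 at 10 points, was 35 at 20 points, 80 when the larger share had to be 50% or more, and 69 when a log2 ratio of shares (with 1 point added) of 0.5 was required instead. The number of lower genes, 58 at 10 points, was 14 at 20 points and 29 by the log2 ratio. Of the 359 genes, 26 rather than 6 were listed in cluster 3 alone when set against macrophage/monocyte tables only. At 5 points 167 were higher and 81 lower, and after centring on the median difference 93 and 76, where centring evens the split by construction. Of the 72 named genes past 10 points, 56 were past it after centring and 16 were not, among them Stat2 (9.5), Mndal (9.9), C4b (8.2), C3ar1 (6.7), Axl (9.4), Cbr2 (8.6) and Cd14 (8.0 points). Shares near 100% hide differences in level, cell numbers and depth per cluster and library are not among the values used, and leaving out a library was not possible. No paired analysis was possible because there was 1 library per genotype and the result comes from no test.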
